A study of Mus musculus with 40 samples.

Results

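The DNA replication machinery was followed in mouse oocytes as 49 genes in 8 subcomplexes: origin recognition and licensing (9 genes), the MCM2-7 helicase (6), helicase activation (8), polymerases and primase (12), the sliding clamp and its loader (6), RPA (3), Okazaki fragment processing (3) and ribonucleotide reductase (2). The members were taken by name: every probe set of the 430A and 430B arrays whose platform symbol was exactly a member's symbol. This rule used no measured value, but the members were chosen with earlier results of these data known. The rule gave 107 probe sets for the 49 genes, of 18193 genes in all. All 49 genes had at least 1 probe set bright enough to test, and 103 of the 107 probe sets were tested. Each gene is represented below by 1 probe set, called its main probe set, and calls refer to it unless another is named. Where other probe sets of a gene gave another answer, this is said beside it for some genes only. Counts of such genes follow further below.

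Oocytes were isolated from primordial, primary, secondary, small antral and large antral follicles of SJLB6 female mice aged 2, 6, 12, 17 and 24 days. A sample pooled 400, 90, 60, 30 or 20 oocytes in that order, and each stage had 4 biological replicates on each of 2 Affymetrix array types, 40 samples in all. The labels name no treatment for any stage and do not say which animals went into which sample. Stage, mouse age and number of pooled oocytes changed together and cannot be told apart, and p-values measure the spread between these samples. The signals are relative: each array was brought to the same trimmed mean of 500, so a lower signal cannot be told apart from a larger pool of other transcripts.

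A chromosome is copied only where an origin has first been licensed. The origin recognition complex, with Cdc6 and Cdt1, loads the ring-shaped MCM helicase onto DNA, and geminin (Gmnn) blocks Cdt1 so that this happens once per cycle. The kinase Cdc7 with its activator Dbf4, together with Mcm10, Cdc45 and the GINS complex, turns the loaded ring into a moving helicase, after which primase, the replicative polymerases, the PCNA clamp and its RFC loader build the new strands. Oocytes finished their last S phase before birth and stay in meiotic prophase throughout follicle growth, but the fertilized egg replicates its DNA with proteins and transcripts that the oocyte has stored.

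Many of these genes carry binding sites for E2F, the transcription factor family that switches on S phase genes, close to their start. RefSeq promoters on GRCm38.p6, from 250 bases before to 50 bases after the annotated start, were available for 41 of the 49 genes. The words TTTCCCGC, TTTGGCGC, TTTCGCGC and TTTGCCGC were searched on both strands, and matches may overlap. At least 1 of them was found in 16 of the 41 members (39.0%), against 704 of 27025 genes with a promoter in the same table (2.6%). The 16 were Orc1, Orc3, Cdc6, Cdt1, Mcm3, Mcm5, Mcm6, Mcm7, Gins3, Pola1, Pold1, Pold3, Pole2, Pole4, Rfc3 and Lig1. The cell cycle word TTTGAA was found in 7 of the 41 (17.1%, against 20.2% of all promoters) and CCAAT in 25 (61.0%, against 41.1%). The 4 promoters printed here belong to genes whose levels moved differently across the stages (below), 3 of them lowest at the primordial stage and Lig1 lowest in large antral oocytes. Capitals mark the E2F words, and for Lig1 the only 1 of its 3 annotated start windows with a word is shown.
Cdc6 (chr11:98907901-98908200, plus strand): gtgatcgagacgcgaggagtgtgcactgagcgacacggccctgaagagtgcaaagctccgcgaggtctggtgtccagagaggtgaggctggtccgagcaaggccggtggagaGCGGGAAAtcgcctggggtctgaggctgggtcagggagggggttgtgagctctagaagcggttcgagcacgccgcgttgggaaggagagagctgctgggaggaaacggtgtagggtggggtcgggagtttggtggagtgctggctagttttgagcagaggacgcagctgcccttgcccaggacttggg
Mcm5 (chr8:75109259-75109558, plus strand): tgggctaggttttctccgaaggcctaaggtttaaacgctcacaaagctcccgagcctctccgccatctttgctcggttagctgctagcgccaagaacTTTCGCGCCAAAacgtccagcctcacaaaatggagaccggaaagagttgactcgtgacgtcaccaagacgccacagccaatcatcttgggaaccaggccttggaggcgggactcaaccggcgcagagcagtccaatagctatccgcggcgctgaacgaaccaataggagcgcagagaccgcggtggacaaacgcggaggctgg
Rfc3 (chr5:151651159-151651458, minus strand): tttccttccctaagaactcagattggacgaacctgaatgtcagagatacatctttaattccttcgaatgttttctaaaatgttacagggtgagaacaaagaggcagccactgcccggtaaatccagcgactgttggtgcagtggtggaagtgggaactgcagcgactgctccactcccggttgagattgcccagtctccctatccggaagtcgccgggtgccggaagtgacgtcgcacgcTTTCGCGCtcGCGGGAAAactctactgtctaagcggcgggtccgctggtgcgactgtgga
Lig1 (chr7:13278576-13278875, plus strand): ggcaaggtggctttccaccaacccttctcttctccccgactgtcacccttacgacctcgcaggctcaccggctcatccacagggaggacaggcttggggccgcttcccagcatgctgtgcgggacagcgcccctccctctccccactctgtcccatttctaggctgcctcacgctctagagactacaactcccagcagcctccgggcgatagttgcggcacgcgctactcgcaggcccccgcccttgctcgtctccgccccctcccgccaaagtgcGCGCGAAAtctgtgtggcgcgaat
In Mcm5 the words overlap and begin 153 and 149 bases before the start, in Rfc3 they begin 10 bases before it and at base 1, in Cdc6 the word begins 138 bases before it, and in Lig1 at base 27 after it. A match is a run of letters and not a measured binding site.

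The primordial samples need a remark before the results. In the deposited tables the primordial replicates 2 to 4 have the form of averages with primordial replicate 1: subtracting replicate 1 from their doubled value gave a negative number for 0 of 22526 probe sets on 430A, where the same subtraction between samples of other stages gave 1120 to 2857. Primordial values of replicates 2 to 4 are therefore given after this subtraction (unmixed values), and comparisons with the primordial stage were fitted on the 8 arrays of the stages compared. After unmixing, replicate 1 had the lowest mean correlation with the other 3 on 430A (0.891, against 0.906 to 0.931 for replicates 2 to 4). The control probe sets for Actb and Gapdh, whose 3′ to 5′ ratios are a sign of RNA or copy length, were not unmixed: 46.9% of the control values of growing stages listed under 430A lie between the steps of 0.1 that other probe sets keep to, and the subtraction gave 3 negative values among 192. As deposited, the log2 ratio of primordial replicates 1 to 4 was 1.77, 2.44, 2.18 and 2.34 for Actb and 1.79, 1.74, 2.77 and 1.75 for Gapdh. Replicate 1 was lowest by Actb but not by Gapdh. Counts of calls against the primordial stage are given with and without replicate 1. Its values also enter the unmixed replicates 2 to 4 through the subtraction. The part of RNA quality in these counts was not tested.

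Across the growing stages, from primary to large antral, the replication genes changed little in size. Between the highest and the lowest of the 4 growing stage means, 32 of the 49 genes stayed within 1.5-fold, and only 2, Orc4 and Lig1, were more than 2-fold apart. None of the 3 consecutive steps held a member that was both called and changed at least 2-fold. Orc4 rose and Lig1 fell over the whole span. With the primordial stage included, 28 genes had their lowest mean at the primordial stage and 16 their highest in large antral oocytes. The remaining highest means fell at the primordial (11 genes), primary (6), secondary (11) and small antral (5) stage. The same counts were not made over all genes, so whether they are particular to these members was not tested.

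**Figure D1:**
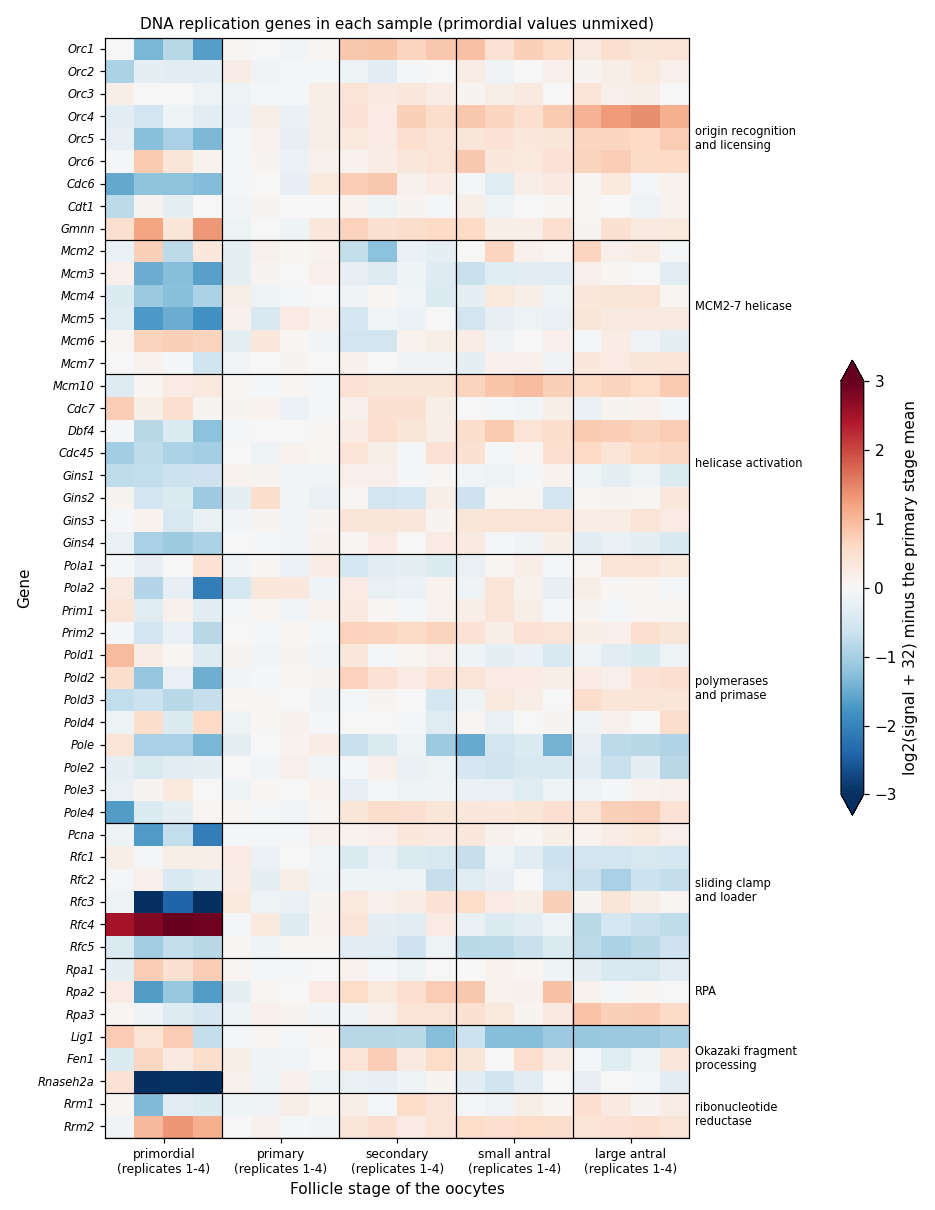
Each row is a gene and each column a sample, grouped by follicle stage and by subcomplex, and the colour gives log2(signal + 32) minus the mean of the 4 primary samples, with values past 3 in either direction drawn in the end colours. Most rows are pale across the growing stages, and the strong colours lie in the primordial columns, where replicate 1 is often paler than replicates 2 to 4.

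In the limma fits, calls were made at an adjusted p under 0.05 (Benjamini-Hochberg, over all probe sets tested on an array type). Large antral oocytes differed from primary oocytes in 24 of the 49 members, 14 higher and 10 lower, where 34.9% of all 15426 genes tested were called (17.4% higher and 17.5% lower). The median log2 change was 0.17 over the members and 0.02 over all genes. Secondary against primary oocytes gave 19 calls, 14 higher and 5 lower, against 16.8% of all genes (10.1% higher and 6.63% lower). The medians of that step were 0.10 and 0.00. The count of lower calls depended on single samples: 1 was left without secondary replicate 1, 2 without primary replicate 3 or 4, and 3 without secondary replicate 4 or primary replicate 2. With arrays scaled to a common median the step gave 12 calls, 10 higher and 2 lower. Small antral against secondary gave 6 calls, 3 in each direction, against 15.1% of all genes (5.93% higher and 9.12% lower), with medians of -0.04 and -0.01. Without small antral replicate 2 or secondary replicate 1, 3 calls were left in each case (2 higher and 1 lower). Large antral against small antral gave 7 calls, 5 higher and 2 lower, against 7.93% of all genes (3.11% higher and 4.82% lower), with medians of 0.02 and 0.01, and 4 calls (2 in each direction) without large antral replicate 3. The higher calls of that step came to 3 without large antral replicate 1 or without small antral replicate 1, 3 or 4. The lower calls came to 4 without small antral replicate 2 and to 3 without large antral replicate 4 or small antral replicate 3 or 4. As shares of the 49 members the calls of the 3 consecutive steps came to 38.8%, 12.2% and 14.3% in stage order.

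**Figure D2:**
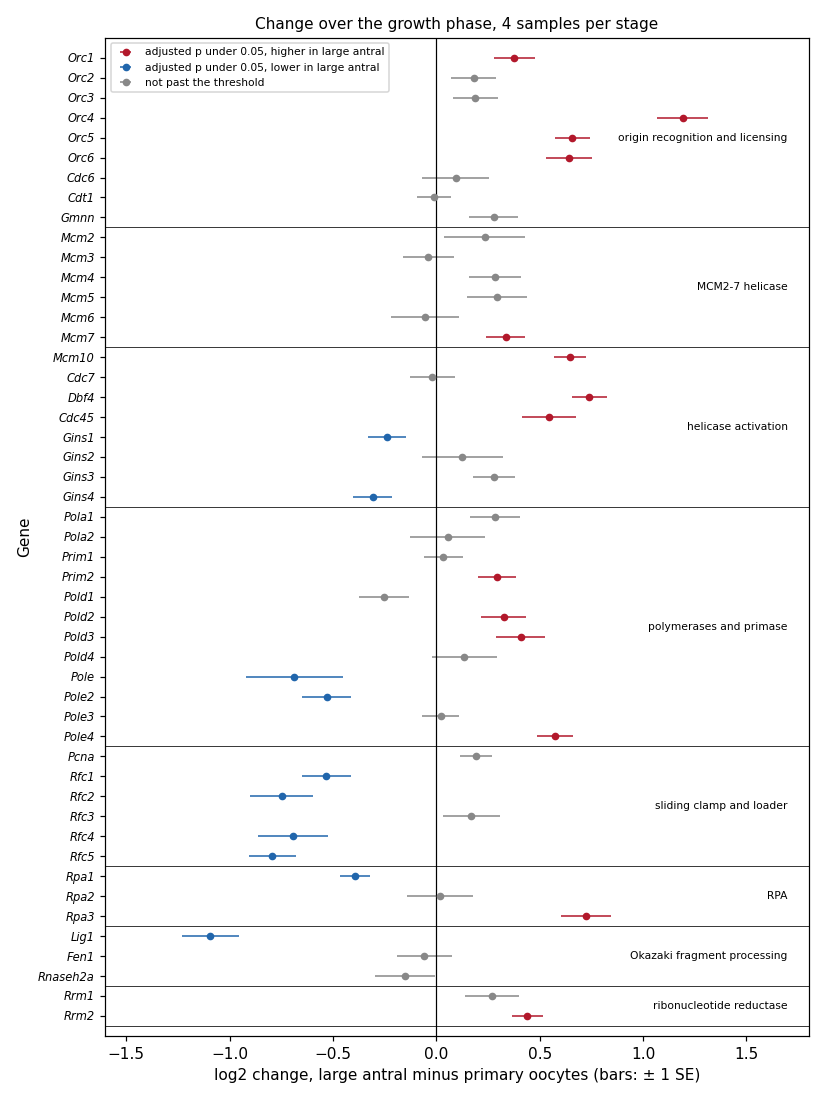
Points give each gene's log2 change, large antral minus primary, with bars of 1 standard error from the limma fit (4 samples per stage), grouped by subcomplex. All origin recognition and licensing genes but Cdt1 lie to the right of 0, 4 of the 6 clamp and loader genes to the left, and Orc4 and Lig1 mark the extremes.

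The stages also differed in markers of other ovarian cells. The summed signal of 12 granulosa cell markers on 430A ranged from 3501 to 3910 in large antral samples, against 1800.5 to 2368 in primary samples, with 2 of the 12 under a mean of 100 in large antral and 5 in primary oocytes. Of 16 tested granulosa markers 5 were higher and 1 lower. The 13 oocyte markers on 430A summed to 124940 to 140192 in large antral and 167136 to 174694 in primary samples, and 8 of 16 tested were lower and 2 higher. Of the 13, 0 had a mean under 100 at any stage. Theca, stroma and fibroblast markers (5 on 430A) summed to 651 to 976 in primary samples, against 1155 to 2222 in primordial samples. Ovarian surface epithelium markers (3 on 430A) summed to 780 to 1038 in secondary samples, against 412 to 663 in primary samples. Of 5 tested, 2 were higher and 0 lower in that step. Blood and endothelium markers (3 on 430A) summed to 272 to 344 in secondary and 222 to 336 in primary samples, and 0 of 4 tested were called there. The log2 3′ to 5′ ratio of Actb listed under 430A was 2.57 to 4.16 in large antral samples, against 2.28 to 2.47 in secondary samples. The Gapdh ratio went the other way, with 2.26 to 2.49 in large antral samples, against 2.97 to 3.16 in secondary samples. The ratios of primary samples are listed under 430B (2.07 to 2.19 for Actb and 2.84 to 3.01 for Gapdh) and were not set against them. The part of such cells, or of RNA quality, in the changes of replication genes was not tested.

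Origin recognition and licensing genes were the subcomplex with the most calls in the first growth step. In secondary against primary oocytes 6 of its 9 genes were called, all of them higher: Orc1, Orc3, Orc4, Orc5, Cdc6 and Gmnn. Over all genes 10.1% were higher and 6.63% lower in that step. Of these genes Orc1, Orc3 and Orc4 had other tested probe sets, and none of those was called in that step. Orc4 (1453804_a_at), a subunit of the complex that marks origins, measured 692, 574, 783 and 684 in primordial oocytes, 765, 972, 751 and 995 in primary, 1185, 1038, 1427 and 1261 in secondary, 1548, 1364, 1224 and 1520.4 in small antral and 1801, 2132, 2329.6 and 1837 in large antral oocytes. Every large antral sample lay above every primary sample, and the secondary samples also lay above all primary ones. Its log2 change was 1.19 ± 0.12 (SE, adjusted p = 1.64e-07) in large antral against primary oocytes, a 2.28-fold difference on the scale of log2(signal + 32), and 0.48 ± 0.12 (SE, adjusted p = 0.00882) in secondary against primary. The rise differs between probe sets: of the 3 other Orc4 probe sets, 1 was called higher in large antral against primary (0.38), and the other two were at 0.28 and -0.29 without a call.

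Orc5 (1415830_at), another subunit, measured 3689, 1799.9, 2206 and 1689.7 in primordial oocytes, 4294, 4673, 3693 and 4917 in primary, 5384, 5173, 6226 and 5756 in secondary, 5606, 5899, 5484 and 5645 in small antral and 6807, 6796, 6606 and 7476 in large antral oocytes. It was higher in large antral than in primary oocytes in every sample, with a log2 change of 0.66 ± 0.09 (SE, adjusted p = 3.1e-06). Orc1, the subunit that is regulated through the cell cycle, rose by 0.77 ± 0.10 (SE, adjusted p = 1.92e-05) in secondary against primary oocytes. Its means were 1111 ± 67.6 in secondary and 637 ± 30.9 in primary (SD, n = 4 each), and its large antral mean was 838 ± 51.1. The other Orc1 probe set was not called between growing stages (0.10 in secondary against primary). Orc6 was higher in large antral than in primary oocytes by 0.64 ± 0.11 (SE, adjusted p = 7.79e-05). Cdc6 (1417019_a_at), which loads the helicase together with the origin complex, measured 321, 409, 408 and 384 in primordial oocytes, 942, 998, 831 and 1223 in primary, 1668, 1747, 1091 and 1158 in secondary, 950.3, 763, 1138 and 1207 in small antral and 1022, 1218, 945 and 1061 in large antral oocytes. All 4 primordial samples were low, and its secondary samples split into a high and a lower pair that overlapped the primary samples. The log2 change of Cdc6 in secondary against primary was 0.47 ± 0.16 (SE, adjusted p = 0.047), and this call held in 9 of 19 alternative settings. Those settings were other scalings, filters and fits and each sample left out in turn. Gmnn, the Cdt1 inhibitor, rose by 0.56 ± 0.12 (SE, adjusted p = 0.00215) in the same step, and Orc3 by 0.31 ± 0.11 (SE, adjusted p = 0.0475), a call that held in 7 of 19 settings. Cdt1 itself, the loader that geminin blocks, had means between 7048 and 7162 over the 4 growing stages on its main probe set, which was not called in any comparison. Its other tested probe set, 1424144_at, was called higher in secondary against primary (log2 0.41, adjusted p = 0.00845), in large antral against primary (0.32, adjusted p = 0.0185) and in both comparisons with the primordial stage, so the answer for Cdt1 depends on the probe set. Orc2 was not called between growing stages, but 1 of its 2 other probe sets was called higher in large antral against primary (0.34).

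**Figure D3:**
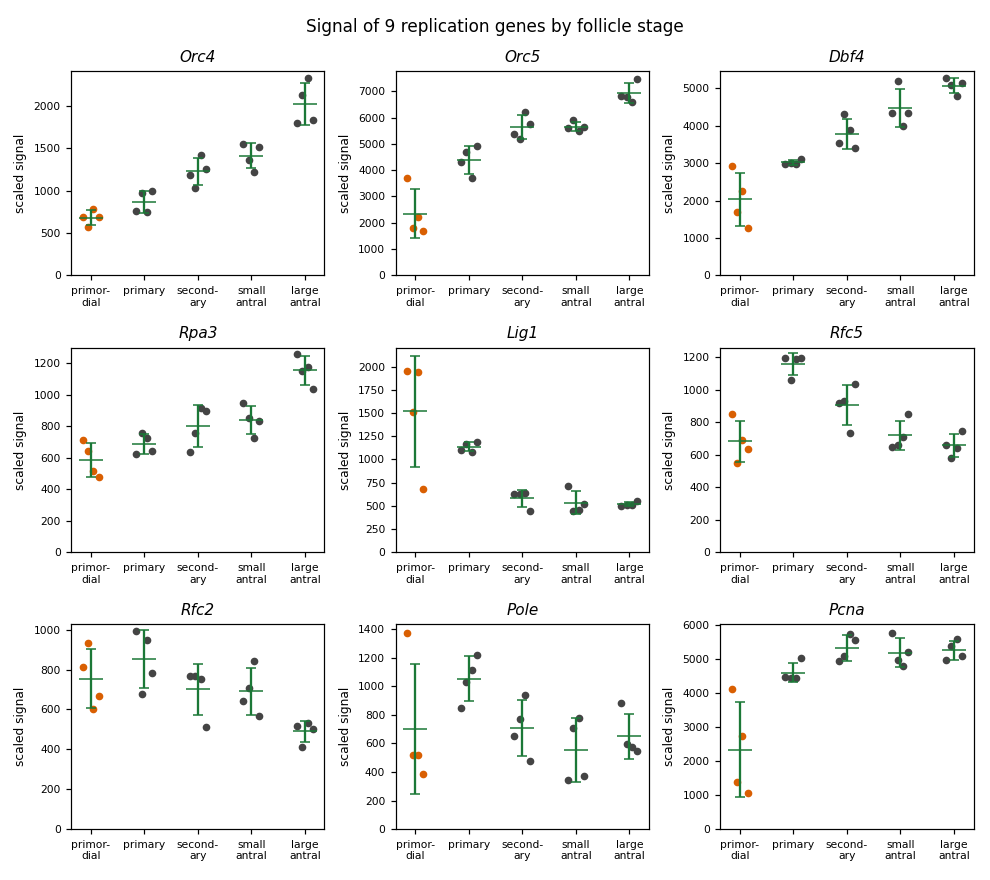
Dots are the scaled signals of single samples at each follicle stage for 9 genes, with orange dots for unmixed primordial values, horizontal lines for the mean of 4 samples and green bars for 1 SD. Orc4, Orc5, Dbf4 and Rpa3 are highest in large antral oocytes, while Lig1, Rfc5 and Rfc2 are lower there than in primary oocytes, and the Pcna means of the growing stages lie between 4603 and 5334.

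The MCM2-7 genes, the subunits of the replicative helicase, changed little across growth on their main probe sets. Of the 6, Mcm7 was the only gene called in large antral against primary oocytes, higher by 0.34 ± 0.09 (SE, adjusted p = 0.00653), with means of 3712 ± 168 in large antral and 2935 ± 139 in primary oocytes (SD, n = 4 each). Mcm5 (1415945_at) measured 546, 190.4, 232 and 178 in primordial oocytes, 772, 499, 850.3 and 761 in primary, 492, 668, 626 and 716 in secondary, 471, 587, 638 and 597 in small antral and 923, 858, 855 and 866 in large antral oocytes. Between growing stages it was called only in the last step, large antral against small antral, with a log2 change of 0.59 ± 0.15 (SE, adjusted p = 0.0128) and separate ranges at the 2 stages. The other Mcm5 probe sets, 1436808_x_at and 1459658_at on 430B, changed by 0.10 and -0.50 in that step without a call. The main probe set of Mcm2 dipped at the secondary stage: the log2 change was -0.61 ± 0.19 (SE, adjusted p = 0.034) in secondary against primary oocytes, with overlapping samples and a call that held in 10 of 19 settings. It was 0.80 ± 0.19 (SE, adjusted p = 0.00639) in small antral against secondary oocytes. The other Mcm2 probe set, 1448777_at, showed no call in either step (log2 0.02 and 0.28), and was called higher in large antral against primary (0.88). Mcm3 (1420028_s_at) measured 1182, 356, 421 and 318 in primordial oocytes, 878, 1124, 1069 and 1183 in primary, 880.2, 802, 964 and 805 in secondary, 657, 815, 848 and 841 in small antral and 1173, 1088, 1063 and 824 in large antral oocytes. Primordial replicate 1 lay within the growing range of Mcm3, and the other 3 primordial values lay below every growing sample. Mcm4 (1416214_at) measured 1670.3, 1021, 918 and 1135 in primordial oocytes, 2513, 2006, 2195 and 2245 in primary, 2088, 2309.7, 2117 and 1668 in secondary, 1816, 2738, 2543 and 2033 in small antral and 2775, 2859.8, 2982 and 2344 in large antral oocytes. Neither was called between growing stages, with adjusted p of 0.842 and 0.0773 in large antral against primary. Other probe sets were called higher there, 1436708_x_at of Mcm4 (log2 0.80) and 1449705_x_at of Mcm3 (0.57), while the other 3 tested Mcm3 probe sets were not. With the mean of all tested probe sets of a gene on the array type of its main one, Mcm2 (0.56) and Mcm4 (0.54) were called as well. Mcm6 was not called between growing stages either. In large antral against small antral the main probe set of Mcm7 was also called higher (0.35, adjusted p = 0.0191), as was its 1416030_a_at (0.53). So were 1448777_at of Mcm2 (0.58), 1449705_x_at of Mcm3 (0.84) and 1436708_x_at of Mcm4 (0.53). The remaining tested probe sets of these genes were not called in that step.

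Among the genes that activate the loaded helicase, Mcm10, Dbf4 and Cdc45 rose and Gins1 and Gins4 fell in large antral against primary oocytes. Dbf4 (1418334_at), the activator of the Cdc7 kinase, measured 2916, 1692, 2251 and 1275 in primordial oocytes, 2966, 3015, 2985 and 3113 in primary, 3533, 4314, 3891 and 3396 in secondary, 4330.4, 5198, 4008 and 4347 in small antral and 5267, 5079, 4788 and 5144 in large antral oocytes. Its large antral samples all lay above its primary samples, and the means of the growing stages in order were 3019, 3784, 4471 and 5069. The log2 change was 0.74 ± 0.09 (SE, adjusted p = 8.15e-07), a 1.67-fold difference, while the kinase subunit Cdc7 was not called in any comparison (log2 -0.02 in large antral against primary, adjusted p = 0.916). Mcm10, a scaffold of the firing step, was higher in large antral than in primary oocytes by 0.65 ± 0.08 (SE, adjusted p = 1.22e-06), and it rose both in secondary against primary (0.38) and in small antral against secondary (0.41). With the mean of all its tested probe sets the change of Mcm10 in large antral against primary was 0.21 and no longer called, and in secondary against primary it was -0.055. Cdc45 (1416575_at), the helicase cofactor, measured 272, 339, 289.9 and 275 in primordial oocytes, 590.4, 529.5, 636 and 615 in primary, 795, 668, 579 and 811 in secondary, 824, 568, 617 and 841 in small antral and 904, 801, 892 and 919.5 in large antral oocytes. The 4 primordial samples were the lowest and the 4 large antral samples lay above all primary samples, with a log2 change of 0.55 ± 0.13 (SE, adjusted p = 0.00229) in large antral against primary. Gins4 (1417913_at), a subunit of the GINS complex, measured 1764, 1012, 944 and 1035 in primordial oocytes, 2025, 1946, 1907 and 2233 in primary, 2109, 2388, 2048 and 2406 in secondary, 2434, 1977, 1884 and 2307 in small antral and 1617, 1755, 1679.7 and 1474 in large antral oocytes. The large antral samples lay below every sample of the other growing stages. The log2 change of Gins4 was -0.31 ± 0.10 (SE, adjusted p = 0.0139) against primary and -0.39 ± 0.10 (SE, adjusted p = 0.0135) against small antral oocytes. Gins1 fell by 0.24 in large antral against primary on the log2 scale (adjusted p = 0.0473), a call that held in 11 of 19 settings, and neither Gins1 nor Gins4 passed when arrays were scaled to a common median. Gins2 and Gins3, the remaining GINS genes, were not called in any comparison on their main probe sets. A second Gins2 probe set, 1452881_at, was called higher in primary against primordial (log2 2.25, adjusted p = 0.0235) and in large antral against primordial (2.03, adjusted p = 0.0367).

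The polymerase genes split. Prim2, Pold2, Pold3 and Pole4 were higher in large antral than in primary oocytes, Pole and Pole2 were lower, and the other 6 genes did not pass. Prim2 (1418036_at), the large subunit of primase, measured 758, 512, 664 and 428 in primordial oocytes, 788, 754, 822 and 764 in primary, 1281, 1244, 1176 and 1259 in secondary, 1064, 909, 1068 and 1052 in small antral and 893, 873, 1097 and 1016 in large antral oocytes. It peaked at the secondary stage, where all 4 samples lay above those of every other stage. The log2 change was 0.64 ± 0.09 (SE, adjusted p = 5.59e-05) in secondary against primary and 0.29 ± 0.09 (SE, adjusted p = 0.0147) in large antral against primary. The lower level in small antral than in secondary oocytes, -0.27 ± 0.09 (SE, adjusted p = 0.0491), was called in 5 of 20 settings only. Pold3 (1426838_at), an accessory subunit of polymerase delta, measured 1519, 1627, 1433 and 1574 in primordial oocytes, 2699, 2644, 2565 and 2402 in primary, 2530.1, 2738, 2568 and 1786 in secondary, 2312, 3179.9, 2972 and 2566 in small antral and 3702, 3296, 3391 and 3328 in large antral oocytes. Its large antral samples lay above all primary samples and all primordial samples lay below every growing sample. The log2 change in large antral against primary was 0.41 ± 0.12 (SE, adjusted p = 0.00828). Pole4 (1423371_at), a histone-fold subunit of polymerase epsilon, measured 785, 1938, 2127 and 2719.7 in primordial oocytes, 2714, 2492, 2471 and 2725 in primary, 3355, 3764, 3651 and 3344 in secondary, 3319.9, 3237, 3358 and 3670.4 in small antral and 3455, 4307, 4330.2 and 3508 in large antral oocytes. Its secondary, small antral and large antral samples all lay above its primary samples, and primordial replicate 1 was the lowest of the 20. The log2 change of Pole4 was 0.57 ± 0.09 (SE, adjusted p = 2.04e-05) in large antral against primary.

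The catalytic subunit of polymerase epsilon, Pole, went the other way. Its means were 649.8 ± 155 in large antral and 1055 ± 159.7 in primary oocytes (SD, n = 4 each), a log2 change of -0.69 ± 0.23 (SE, adjusted p = 0.0236) with overlapping samples and a call that held in 14 of 19 settings. Pole2, its partner subunit, fell by 0.53 in the same comparison (adjusted p = 0.00115). Its change in small antral against secondary was -0.44 ± 0.12 (SE, adjusted p = 0.0124). Pold1, the catalytic subunit of polymerase delta, was lower in small antral than in secondary oocytes, with a log2 change of -0.40 ± 0.12 (SE, adjusted p = 0.0285), and its change in large antral against primary, -0.25, did not pass, though the mean of its tested probe sets did (-0.66). Pola1, the catalytic subunit of polymerase alpha, changed by -0.38 ± 0.12 (SE, adjusted p = 0.0304) in secondary against primary oocytes and by 0.38 ± 0.12 (SE, adjusted p = 0.0354) in small antral against secondary. Pola2, Prim1, Pold4 and Pole3 were not called in any comparison, although another Prim1 probe set was called lower against the primordial stage (-0.62 in primary and -0.60 in large antral oocytes).

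On their main probe sets most genes of the clamp loader fell over growth. Of the 5 RFC genes, whose products open the PCNA ring and place it on DNA, 4 were lower in large antral than in primary oocytes and none was higher. Over all genes 17.5% were lower and 17.4% higher. The log2 change of Rfc5 was -0.79 ± 0.12 (SE, adjusted p = 1.25e-05), with means of 658 ± 69.2 in large antral and 1159.9 ± 67.1 in primary (SD, n = 4 each) and no overlap. Rfc2 changed by -0.75 ± 0.15 (SE, adjusted p = 0.000474) and Rfc1, the large subunit, by -0.53 ± 0.12 (SE, adjusted p = 0.00102). Rfc4 (1438161_s_at) measured 2155, 2623, 3337 and 2898 in primordial oocytes, 347, 448, 268 and 389.9 in primary, 475, 294, 282 and 432 in secondary, 309, 259.6, 275 and 323 in small antral and 192, 238, 212 and 197 in large antral oocytes. The primordial samples stood far above all others, and the large antral samples lay below all primary samples. The log2 change of Rfc4 in large antral against primary was -0.69 ± 0.17 (SE, adjusted p = 0.00235). These 4 calls held in all 19 alternative settings each, but none of the other tested probe sets of Rfc1 (log2 -0.17 and -0.28), Rfc2 (-0.12 and -0.35) and Rfc4 (-0.30) was called in large antral against primary, and Rfc5 had a single tested probe set.

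Rfc3 (1423700_at) measured 423, 8.12, 62.3 and 7.10 in primordial oocytes, 578, 421, 402 and 496 in primary, 587, 524, 552 and 643 in secondary, 706, 566, 532 and 787 in small antral and 501, 615, 532 and 488 in large antral oocytes. Primordial replicate 1 reached the level of the growing stages, and replicates 2 to 4 lay far below it. Between growing stages Rfc3 was not called, with a log2 change of 0.17 in large antral against primary (adjusted p = 0.356). The other Rfc3 probe set, 1432538_a_at, was called higher in secondary against primary (0.53, adjusted p = 0.016). Pcna (1417947_at), the sliding clamp that tethers the polymerases, measured 4132, 1391, 2742 and 1071 in primordial oocytes, 4486, 4441, 4454 and 5032 in primary, 4938, 5082, 5739.5 and 5576 in secondary, 5782, 4989.6, 4798 and 5199 in small antral and 4978, 5376, 5597 and 5092 in large antral oocytes. The growing samples overlapped, and the log2 change in large antral against primary was 0.19 ± 0.08 (SE, adjusted p = 0.0556). That difference passed in 3 other settings: a minimum of 200 for the signal filter, the mean of all tested probe sets, and a fit of the primary and large antral arrays alone. Pcna had a single tested probe set, so the mean of all tested probe sets changed other genes of the fit and not its own values.

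The RPA genes encode the complex that coats single-stranded DNA, and each had its own course. Rpa3 (1448938_at), its smallest subunit, measured 714, 641, 516 and 476 in primordial oocytes, 626, 759.6, 723 and 643 in primary, 636, 754, 919 and 900.2 in secondary, 948, 852, 727 and 837 in small antral and 1261, 1154, 1175 and 1037 in large antral oocytes. Its large antral samples lay above every other sample, with a log2 change of 0.72 ± 0.12 (SE, adjusted p = 5.52e-05) against primary oocytes. Rpa1 (1437309_a_at), the largest subunit, measured 14677, 29392, 24349 and 29352 in primordial oocytes, 18444, 17168, 17251 and 17716 in primary, 18935, 17177, 15748 and 17361 in secondary, 17815, 19055, 18448 and 16204 in small antral and 14321, 12829.9, 12553 and 14082 in large antral oocytes. Its large antral samples lay below every sample of the other growing stages. Rpa1 fell by 0.39 on the log2 scale in large antral against primary (adjusted p = 0.000148), but under quantile normalization the change was -0.08 and not called, so this call depends on the scaling. The other Rpa1 probe set, 1423293_at, was not called in large antral oocytes against primary (-0.19) or small antral oocytes (-0.009). Rpa2 (1416433_at), the middle subunit, measured 1287, 313, 469 and 315 in primordial oocytes, 872, 1131, 1069 and 1282 in primary, 1598, 1325, 1530.0 and 1836 in secondary, 1912, 1167, 1185 and 2007 in small antral and 1157, 1032, 1106 and 1082 in large antral oocytes. It was higher in secondary than in primary oocytes by 0.52 ± 0.16 (SE, adjusted p = 0.0265), a call that held in 12 of 19 settings, and its large antral samples were back within the primary range. The other Rpa2 probe set changed by -0.11 in secondary against primary without a call.

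Lig1 (1416641_at), the ligase that seals Okazaki fragments, measured 1948, 1509, 1945 and 676 in primordial oocytes, 1101, 1168, 1084 and 1185 in primary, 624, 622, 639 and 445 in secondary, 712, 446, 451 and 518 in small antral and 498, 511, 504 and 548 in large antral oocytes. All samples of the 3 later stages lay below all primary samples. The fall came between the primary and the secondary stage, and the later steps were not called. The log2 change was -0.94 ± 0.14 (SE, adjusted p = 5.96e-05) in secondary against primary and -1.09 ± 0.14 (SE, adjusted p = 1.8e-06) in large antral against primary, a 2.13-fold difference. Both calls held in all 19 alternative settings. Lig1 had a single tested probe set, so the mean of all tested probe sets left its own values as they were. Fen1 (1436454_x_at), the flap nuclease of the same pathway, measured 1709, 3501, 2745 and 3288 in primordial oocytes, 2563, 2098, 2134 and 2299.6 in primary, 3044, 3807, 2738 and 3316 in secondary, 2946, 2283, 3217 and 2639 in small antral and 2174, 1754, 2066 and 2842 in large antral oocytes. Its secondary samples lay above all primary ones, with a log2 change of 0.49 ± 0.13 (SE, adjusted p = 0.0136), and its large antral samples overlapped the primary samples. The other Fen1 probe set was called higher in large antral against primary (0.32). Rnaseh2a (430B, 1452725_a_at), which removes RNA from DNA, measured 1502, 83.9, 114 and 56.6 in primordial oocytes, 1207, 1013, 1220.4 and 994 in primary, 953, 922, 986 and 1169.7 in secondary, 864, 722, 887 and 1113 in small antral and 928, 1096, 1069.9 and 883 in large antral oocytes. No comparison between growing stages was called, and primordial replicates 2 to 4 lay at a small fraction of replicate 1 and of every growing sample.

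Ribonucleotide reductase makes the deoxynucleotides used in replication. Its small subunit Rrm2 (1434437_x_at) measured 1564, 3320.1, 4235 and 3576 in primordial oocytes, 1685, 1848, 1598 and 1593 in primary, 2156, 2356, 2009 and 2250.1 in secondary, 2478, 2374, 2470.2 and 2423 in small antral and 2259, 2276, 2408 and 2214 in large antral oocytes. The secondary, small antral and large antral samples all lay above the primary samples, and the log2 change in large antral against primary was 0.44 ± 0.08 (SE, adjusted p = 9.19e-05). The large subunit Rrm1 (1415878_at) measured 659.9, 234, 499 and 475 in primordial oocytes, 581, 587, 738 and 656 in primary, 721, 625, 955 and 849 in secondary, 615, 592, 725 and 661 in small antral and 921, 774, 677 and 751 in large antral oocytes. Its growing samples overlapped and no comparison between growing stages was called.

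Against the primordial stage the shifts were larger. Primary oocytes differed from primordial oocytes in 18 of the 49 members, 15 higher and 3 lower, where 31.3% of all 15342 genes with a value were called (17.9% higher and 13.4% lower). The median log2 change was 0.33 over the members and -0.02 over all genes, and 8 of the called changes were at least 2-fold. Large antral oocytes differed from primordial oocytes in 28 members, 22 higher and 6 lower, where 41.9% of all genes were called (22.7% higher and 19.2% lower), with medians of 0.47 and -0.02 and 17 called changes of at least 2-fold. The share of all genes with called changes of at least 2-fold was not counted. Without primordial replicate 1 the counts were 29 (23 higher and 6 lower) in primary against primordial and 35 (26 higher and 9 lower) in large antral against primordial. In primary against primordial, 11 calls were left without primary replicate 1, without primary replicate 3 or without primordial replicate 2. When arrays were scaled to a common median, the median of all genes moved to 0.21 in primary against primordial, and 72.8% of the called genes were higher, against 57.2% with the trimmed mean. The members were then at a median of 0.54, with 20 higher and 1 lower. In large antral against primordial the same scaling moved the median of all genes to 0.25 and the higher share of called genes to 67.8%, against 54.2% with the trimmed mean, and put the members at 0.73 with 29 higher and 4 lower. Quantile normalization put the median of all genes at 0.12 in that comparison and the members at 0.42, with 20 higher and 7 lower.

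On the main probe sets, the rise at the primary stage was seen for some genes in all 4 primordial samples and for others in replicates 2 to 4 only. Cdc6, Cdc45, Pold3 and Gins1 belonged to the first kind: in primary against primordial their log2 changes were 1.31 ± 0.17 (SE, adjusted p = 0.00021), 0.94 ± 0.16 (SE, adjusted p = 0.00111), 0.73 ± 0.13 (SE, adjusted p = 0.00123) and 0.69 ± 0.13 (SE, adjusted p = 0.00234), and no primordial sample overlapped a primary one. Orc5 (0.96), Mcm4 (0.93), Gins4 (0.80), Rfc5 (0.75) and Pcna (1.17) were also called higher with no overlap. Mcm3 (1.06), Mcm5 (1.35), Rpa2 (1.07), Orc1 (0.97), Rfc3 (2.47) and Rnaseh2a (2.37) were called higher although primordial replicate 1 reached into the primary range or above it. Several of these calls were lost in many alternatives: Rpa2 held in 6 of 20 settings, Mcm3 and Rnaseh2a in 10 of 20 each, Orc1 in 13 of 20 and Pcna in 14 of 20, while Mcm5 and Rfc3 held in all. The other Rfc3 probe set, which reached 100 on 20 of 20 arrays, changed by 0.01 in primary against primordial (adjusted p = 0.964) and by 0.29 in large antral against primordial (adjusted p = 0.188), so the rise of Rfc3 rests on its main probe set. Rnaseh2a and Rfc3 had signals between 7.10 and 114 in the other 3 primordial samples, where the minimum used to test a probe set was 100.

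In primary against primordial oocytes 3 members fell, Rfc4, Gmnn and Rrm2. Rfc4 fell by 2.82 on the log2 scale (SE 0.19, adjusted p = 5.89e-06), the largest change of any member in that comparison, and its highest primary sample was 448, against 2155 in its lowest primordial sample. In large antral against primordial it fell by 3.51. Its probe set carries the suffix that the manufacturer gives to sequences shared by several transcripts. The main probe sets of Mcm2, Mcm3, Mcm7 and Gins2 carry the same suffix. The other Rfc4 probe set changed by -0.91 in primary against primordial without a call and by -1.21 with a call in large antral against primordial. Gmnn fell by 0.84 (adjusted p = 0.0169) with no overlap. Rrm2 fell by 0.82 (adjusted p = 0.0348), but its primordial replicate 1 lay below all primary samples, and 2 other Rrm2 probe sets were called higher.

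The members' shift followed the primordial array it was measured against. Subtracting each primordial array from the primary mean, the median over the 49 members was 0.05 for replicate 1, 0.42 for replicate 2, 0.32 for replicate 3 and 0.40 for replicate 4. Over all genes these medians lay between -0.06 and -0.00. Replicate 1 was the highest of the 4 primordial values in 26 of 49 members (53.1%), against 30.7% of all genes. The part of RNA quality in the rise was not tested.

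**Figure D4:**
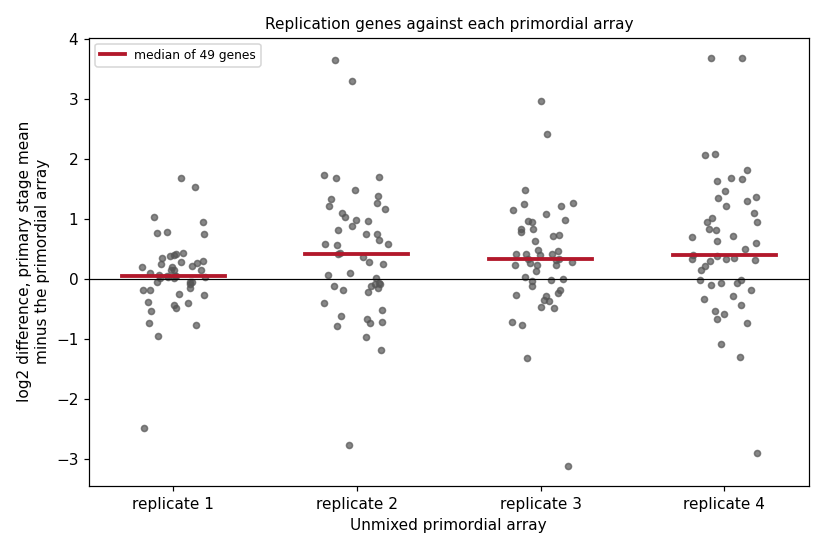
Dots are the 49 genes, with the log2 difference between the primary stage mean and a single primordial array on the vertical axis and red lines for the median of the genes. The median is near 0 for replicate 1 and lies between 0.32 and 0.42 for replicates 2 to 4.

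Probe sets of the same gene did not always move together. Of the 49 genes, 34 had at least 2 tested probe sets. Of the 24 members called in large antral against primary, 14 had another tested probe set, and for 6 of them another was called the same way. Of the members not called in that comparison, 6 had another probe set called higher and 1 had one called lower. In secondary against primary 12 of the 19 called members had another tested probe set, and for 3 another was called the same way. In primary against primordial these counts were 11 of 18 and 2. Of the members not called there, 5 had another probe set called higher (Cdt1, Mcm6, Mcm7, Gins2 and Rpa1). A further 7 had one called lower (Orc2, Orc3, Prim1, Prim2, Pold1, Rfc1 and Rfc2). The 15 higher and 3 lower calls of that comparison thus rest on the main probe sets. In large antral against primordial 21 of 28 called members had another tested probe set, and for 7 another was called the same way. Between large antral and primary oocytes 0 genes had probe sets called both ways, and the count was also 0 in the 3 consecutive growing steps. Against the primordial stage, Mcm4, Orc1 and Rrm2 had probe sets called in opposite directions in primary against primordial, and Mcm6, Orc1, Orc2 and Rpa1 in large antral against primordial. For these genes the direction from the primordial stage depends on the probe set.

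Members with an E2F word were counted apart from those without. In large antral against primary, 4 of the 16 members with a word were called higher and 2 lower, and of the 25 without a word 9 were higher and 4 lower. Over all genes 17.4% were higher and 17.5% lower in that comparison. In primary against primordial, 6 of the 16 were higher and 0 lower, and of the 25 without a word 6 were higher and 2 lower. The shares over all genes there were 17.9% higher and 13.4% lower. These are counts, and the difference between them was not tested. Cdc6, Mcm5 and Rfc3, printed above, were higher in primary than in primordial oocytes, whereas Lig1, with the same kind of word, was not called in that comparison and was lower in secondary than in primary oocytes.

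Genes around the replication machinery were counted from lists of related factors, beside 17.4% of all genes higher and 17.5% lower in large antral against primary oocytes. Of 12 tested genes of nucleotide supply, 7 were lower and 1 was higher in large antral against primary oocytes, with a median of -0.48. Cad, which starts pyrimidine synthesis, fell by 0.87 on the log2 scale (adjusted p = 1.92e-05), with samples of 260.9 to 376 in large antral against 538 to 641 in primary oocytes. Nme2, a nucleoside diphosphate kinase, fell by 0.97, and the deoxycytidine kinase Dck fell by 1.31, although its signals were under 100 at both stages. Of 23 fork and firing factors, 7 were higher and 3 lower, with a median of 0.06. Timeless and its partner Tipin, which stabilise the fork, were higher by 1.16 and 0.58, and the nuclease Dna2 by 0.72. Timeless reached 3937 to 4428 in large antral samples, against 1685 to 2091 in primary samples.

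The E2F and pocket protein list had 4 of 12 genes higher and 1 lower in the same comparison, against the shares of 17.4% and 17.5% over all genes, with the pocket proteins Rbl1 and Rb1 higher by 0.75 and 0.57 and E2f2 by 0.69. Of 10 ubiquitin ligase genes that control licensing 2 were higher and 2 lower, near the shares over all genes. Cul4a, a scaffold of the ligase that removes Cdt1, fell by 1.66 (adjusted p = 4.81e-07), to 271 to 424 in large antral samples against 815 to 1438 in primary samples. Skp2, the substrate receptor of another licensing ligase, rose by 0.82, and Skp1 fell by 0.30. Of the chromatin genes tied to replication, 3 of 10 were higher, among them Asf1a (0.50) and Hells (0.51), and 3 lower, among them the maintenance methyltransferase Dnmt1 (-0.66). The helicase relatives Mcm8 and Mcm9, which act in meiosis and repair, were not called (0.04 and -0.21). Of 14 proliferation genes 4 were higher and 6 lower, with Ccne2 lower by 2.09 on the log2 scale and Ube2c by 1.33, and Ccna2 higher by 0.76.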

How the data were processed

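Oocyte RNA of 5 follicle stages was purified on columns, amplified from small inputs and biotin-labelled, per the labels' protocols. The deposited values are MAS5 intensities of probe sets on a linear scale, per the submitters' processing notes, and the scaling target is not given in the sources used here. Stages and replicate numbers were read from titles. The protocol text of 3 small antral 430B samples gives the age and oocyte number of secondary oocytes, so results were repeated without them. After scaling, signals of 100 were reached by 57.4% to 64.7% of probe sets (430A) or 65.8% to 77.9% (430B), and the number of arrays limits the precision.

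Arrays were scaled to a trimmed mean (2% at each end) of 500, and 32 was added before log2, which understates fold changes of low signals. Probe sets with at least 4 of 20 arrays at 100 were tested, whatever their stage. Gene symbols are those of the platform tables: on 430A 1 symbol was given for 20380 probe sets of 22626, several for 691 and none for 1555, and on 430B 1 for 14565 of 22411, several for 241 and none for 7605. A gene was represented by its tested 430A probe set, or its 430B probe set where 430A had none, with the highest mean over the 16 growing-stage arrays. Primordial replicates 2 to 4 were unmixed as described above, except for the control probe sets and 100 other probe sets of 430A, none of a member. limma 3.58.1 in R 4.3.3 (lmFit, eBayes with trend, two-sided) was fitted per array type, on 16 arrays for growing stages (12 residual degrees of freedom) and on 8 arrays for each comparison with the primordial stage (6). Adjusted p-values are Benjamini-Hochberg over all tested probe sets of an array type, before 1 probe set per gene was taken. The procedure was tested on simulated data.

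Members given sample by sample are up to 3 per subcomplex with the largest called changes; of related lists, up to 3 genes with the smallest adjusted p in large antral against primary are named, and markers are given as sums. The members and lists were chosen with earlier results of these data known. Alternatives were quantile normalization, a common median, other pseudocounts and filters, no trend, the mean of a gene's tested probe sets on 1 array type, deposited primordial values, other sets of arrays, a replicate block and each replicate left out. Same-numbered samples of different stages did not deviate together: their correlations lay between -0.12 and 0.13 on 430A, with 3 of 40 pairs over 0.1, and between -0.04 and 0.06 on 430B. Replicate numbers were therefore not taken as pairs.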

Additional observations from a re-analysis of the deposited data

Results flagged for a closer look

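Of 245 groups of 4 samples (49 genes at 5 stages), 25 held a sample whose gap to the nearest of the other 3 was large against the range of the group by Dixon's 95% criterion, where chance gives about 1 in 20 groups. Primordial replicate 1 accounts for 9 of them, in unmixed signals. It was the highest of its group for Mcm3 (1182), Mcm5 (546), Gins4 (1764), Pole (1378), Rfc3 (423), Rpa2 (1287) and Rnaseh2a (1502), and the lowest for Orc2 (368) and Mcm6 (1751). The other primordial case was Rfc1 in replicate 2 (1587, lowest).

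At the primary stage the samples apart were Orc2 in replicate 1 (875, highest), Mcm2 in replicate 1 (2263, lowest), Pcna in replicate 4 (5032, highest) and Rfc5 in replicate 2 (1059, lowest). At the secondary stage they were Orc1 in replicate 3 (1011, lowest), Mcm10 in replicate 1 (2635, highest) and, in replicate 4, Gins3 (1469), Rfc2 (512) and Lig1 (445), each the lowest. Small antral oocytes gave Mcm3 in replicate 1 (657, lowest) and Prim2 in replicate 2 (909, lowest). Large antral oocytes gave Mcm5 (923) and Pole (881) in replicate 1, Gins3 in replicate 3 (1854) and Gins2 in replicate 4 (7238), each the highest.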

How the results depend on the processing

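The count in large antral against primary (24, with 14 higher and 10 lower) moved by no more than 1.5 times in any alternative run. Secondary against primary (19) had 12 calls with arrays at a common median, where 2 were lower instead of 5, and 3 were lower without the trend. Small antral against secondary (6) had 3 calls, 1 of them lower, when fitted on the arrays of these stages alone, 1 lower under quantile normalization, and 5 higher with the mean of all probe sets of a gene. Large antral against small antral (5 higher and 2 lower) had 1 lower under quantile normalization and with the mean of all probe sets, 3 higher with a common median, and 4 lower with a replicate block. The replicate block gave between 6 and 27 calls over the 6 comparisons (18, 17, 6, 9, 24 and 27 in the order primary against primordial, secondary against primary, small antral against secondary, large antral against small antral, large antral against primary and large antral against primordial). In primary against primordial (3 lower), 5 were lower under quantile normalization, 1 with a common median and 6 with deposited primordial values or with all 20 arrays in 1 fit. In large antral against primordial (6 lower), 10 were lower with deposited values on 8 arrays. The cause of these differences was not tested.

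With each replicate left out in turn, calls ranged from 21 to 26 in large antral against primary (12 to 17 higher, 7 to 10 lower), 13 to 18 in secondary against primary (11 to 15 higher, 1 to 5 lower), 3 to 7 in small antral against secondary (2 to 3 higher, 1 to 4 lower) and 4 to 10 in large antral against small antral (2 to 6 higher, 2 to 4 lower). Against the primordial stage they ranged from 11 to 29 for primary (10 to 23 higher, 1 to 6 lower) and from 21 to 35 for large antral oocytes (16 to 26 higher, 4 to 9 lower), with the highest counts when primordial replicate 1 was left out.

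Among changes called here or in the alternative, directions turned in 12 cases. With the mean of all tested probe sets, log2 changes in primary against primordial became -0.035 for Mcm4, 0.31 for Rrm2 and 0.42 for Rpa1, and in secondary against primary -0.055 for Mcm10. In large antral against primordial they became -0.49 for Orc2, 0.33 for Mcm6, 0.14 for Rpa1, -0.45 for Orc3 and 0.86 for Rrm2, Rpa1 became 0.044 under quantile normalization, and Pole became -0.63 with deposited primordial values on 8 or on 20 arrays. Leaving out the 3 small antral samples with a conflicting protocol left the counts at 6 and 7.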
